A study of Rattus norvegicus with 2 samples.

Results

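The genes described here are 9 that encode proteins of very low density lipoprotein (VLDL) assembly and high density lipoprotein (HDL) handling, measured in rat liver after a choline-deficient diet. They were taken by name from the array annotation, with all of their gene probes: Mttp, Tm6sf2, Sar1b and Sort1 for VLDL, and Abca1, Lcat, Pltp, Lipc and Scarb1 for HDL. All 9 were among the 18196 genes tested, and their 13 probes were among 41012 distinct probes, 11 of the 13 being bright enough to be kept. RNA of choline-deficient livers and RNA of control-diet livers was compared on 2 two-colour oligonucleotide arrays. Both diets were given for 10 days to rats of 7 weeks, of the strain that the labels spell Wister, and the titles speak of 4 choline-deficient rats. The choline-deficient RNA carried Cy5 on array 1 and Cy3 on array 2, with control RNA in the other dye, a dye swap. Whether separate animals, pools or repeat hybridizations of the same extracts stand behind the arrays is not in the labels, and the p-values from limma below rest on the spread between 2 arrays that may differ only technically.

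VLDL carries triglyceride out of the liver. It is built in the endoplasmic reticulum, where microsomal triglyceride transfer protein loads lipid onto apolipoprotein B, and the particle leaves in COPII-coated carriers with a coat of phospholipid that is rich in phosphatidylcholine, the lipid for which choline is a precursor. HDL forms when the ABCA1 transporter passes phospholipid and cholesterol to apolipoprotein A-I, matures as LCAT esterifies that cholesterol, is remodelled by PLTP and hepatic lipase, and gives up cholesteryl ester to the liver through the receptor SR-BI. Choline deficiency is a classical way to produce fatty liver in rats, and these genes act at the steps by which lipid leaves the liver or returns to it.

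The probes are oligonucleotides of 60 bases, and the sequences that matter most for the results below are shown as the array files give them. Capitals mark the complete codons of the reading frame that is free of stop codons, where exactly 1 of the 3 sense frames is, and a probe with more than 1 such frame is left in lower case. The Lcat probe is shown because Lcat was the only one of the 9 genes past the test. Both Mttp probes are shown because they read the same gene at separate positions, the Abca1 probe because it stands for the first step of HDL formation, and the dimmer Scarb1 probe because its ratio had the opposite sign to that of the brighter one.
Lcat: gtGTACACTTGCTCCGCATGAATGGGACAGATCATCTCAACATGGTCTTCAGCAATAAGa
Mttp, brighter probe: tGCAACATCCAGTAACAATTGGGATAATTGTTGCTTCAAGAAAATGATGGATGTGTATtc
Mttp, dimmer probe: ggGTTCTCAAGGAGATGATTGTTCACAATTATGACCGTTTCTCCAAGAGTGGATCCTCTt
Abca1: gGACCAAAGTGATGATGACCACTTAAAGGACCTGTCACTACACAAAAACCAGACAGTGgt
Scarb1, dimmer probe: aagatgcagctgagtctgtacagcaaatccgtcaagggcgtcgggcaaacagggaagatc
The files place them in the rat build rn4. Lcat lies at chr19:35781616-35781674 on the minus strand, a span of 59 bases that holds all but 1 base of the probe, and Abca1 at chr5:70493613-70493672 on the minus strand. The Mttp probes lie on the minus strand at chr2:235613710-235613735, which is only part of that probe, and chr2:235626374-235626433. The dimmer Scarb1 probe runs from 32447458 to 32450453 on the plus strand of chromosome 12, a span of 2996 bases for a probe of 60, and so bridges an intron. The Pltp and Lipc probes bridge introns too, over 2157 and 1559 bases, and whether the remaining probes are in coding or untranslated exons was not analysed here.

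Of the 9 genes, 1 was lower in choline-deficient liver and 8 did not pass limma's test at a Benjamini-Hochberg adjusted p under 0.05. Lcat, the plasma enzyme that esterifies HDL cholesterol, was lower by a log2 ratio of -0.42, a percent change of -25.2, while the genes of VLDL assembly lay between -0.24 (Sar1b) and -0.021 (Mttp). Over all genes tested, 8.62% passed in either direction and 4.25% were lower, so that 1 gene of 9 is close to what the whole array shows. The median log2 ratio of the 9 genes was -0.12, against 0.0002 over all genes. The mean ratio was below 0 for 9 of 9 genes, against 49.9% of all genes, but under median centring it was below 0 for only 3 of 9. In that setting the median log2 ratio was 0.055 for the 9 genes and 0.079 over all genes. In the main fit all 8 hepatocyte markers tested also had means below 0, from -0.67 to -0.064, with a median of -0.20. A mean below 0 was thus not particular to the 9 genes. On both arrays the ratio was below 0 for 8 of 9 genes, against 27.0% of all genes. With median centring this held for 0 of 9, and no share of all genes is given for that setting. It leaves the dependence of the dyes on intensity in place, and all 9 genes had ratios of opposite sign on the arrays. That count of 0 therefore cannot show whether the diet lowered these genes. In the main fit, the 9 of 9 and the 8 of 9 include Sort1. Its probe was kept through the control diet alone, in which its level was the higher one.

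In the plot of levels by diet, a level is the log2 intensity of 1 dye after normalization, and levels are compared only within a probe. They are drawn for the probe that stands for each gene, the brightest of its kept probes. Choline-deficient and control levels did not overlap, and were lower with the deficient diet, for 6 of the 9 genes (Sar1b, Tm6sf2, Abca1, Lcat, Pltp and Scarb1), against 20.3% of all genes tested.

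**Figure D1:**
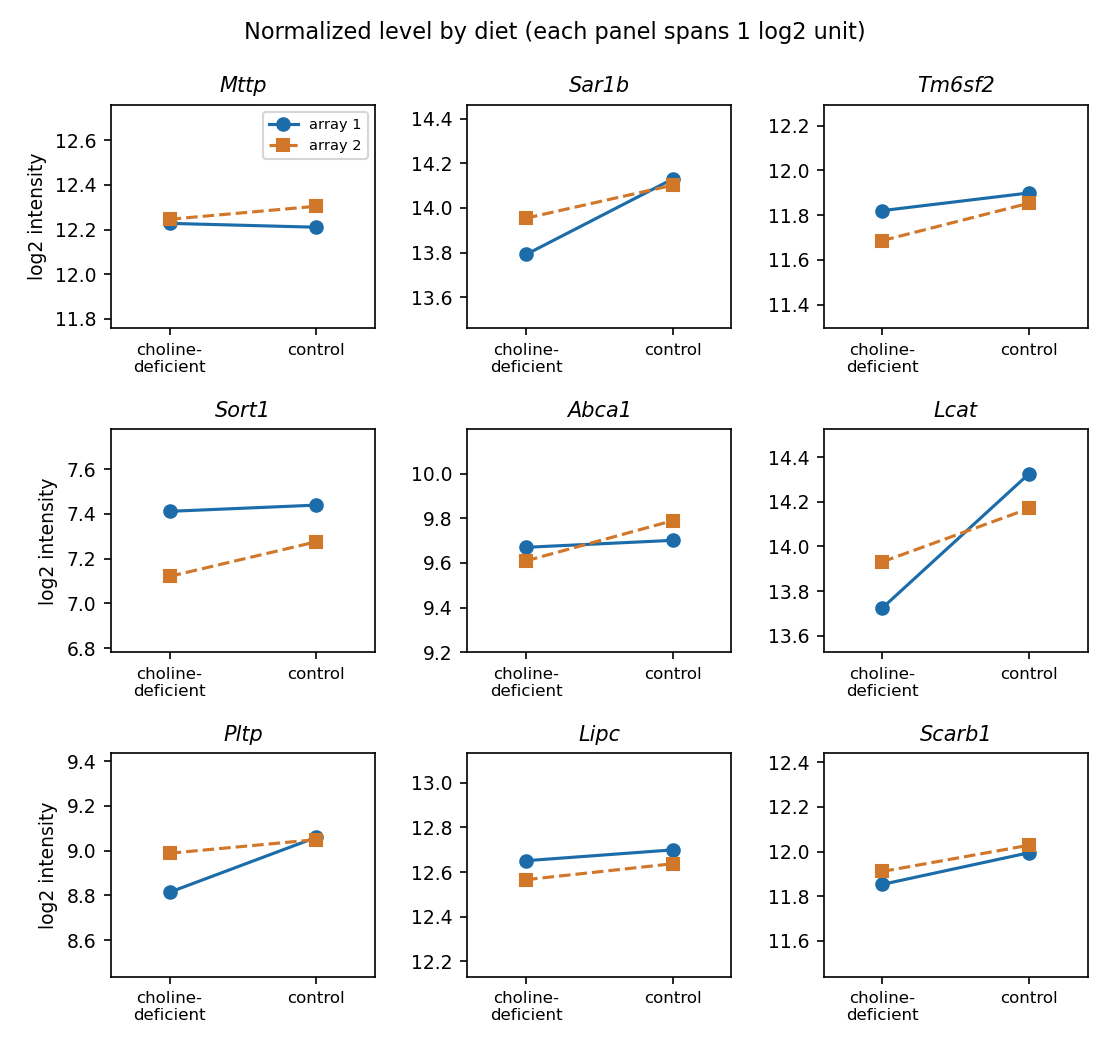
Normalized log2 intensity (vertical axis, arbitrary intensity units) in choline-deficient and control liver for the 9 genes, with 1 line for array 1 (circles) and 1 for array 2 (squares); every panel spans the same range. On each array Lcat has the steepest of the 9 lines, at 13.73 and 13.93 in choline-deficient liver and 14.33 and 14.17 in control liver, and the Mttp lines are nearly flat. The direction of 6 of the 9 genes turns under median centring, where the median over all genes is 0.079.

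Mttp, whose product loads triglyceride onto apolipoprotein B, had levels of 12.23 and 12.25 in choline-deficient liver on arrays 1 and 2, against 12.21 and 12.30 in control liver. The groups overlapped, and the log2 ratio was 0.017 on array 1 and -0.058 on array 2. Its mean of -0.021 ± 0.053 (SD, n = 2 arrays) had a 95% interval from -0.22 to 0.18, or 0.857-fold to 1.13-fold of control (limma adjusted p = 0.979). The dimmer Mttp probe gave -0.056 and 0.046 (mean -0.0049, adjusted p = 0.996 in limma's fit over all 22367 kept probes). Neither Mttp probe separated the diets.

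Tm6sf2, a membrane protein of the endoplasmic reticulum that is needed to lipidate VLDL fully, had levels of 11.82 and 11.69 in choline-deficient liver, against 11.90 and 11.85 in control liver. Its levels were lower with the deficient diet on both arrays and did not overlap, by an amount that the test did not call. The log2 ratio was -0.12 ± 0.062 (SD, n = 2 arrays), with a 95% interval from -0.33 to 0.079 (limma adjusted p = 0.666).

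Sar1b encodes the small GTPase that starts the COPII coat for large lipoprotein cargo. Its levels were 13.79 and 13.95 in choline-deficient liver, against 14.13 and 14.10 in control liver. All choline-deficient levels were below all control levels. The log2 ratio was -0.34 on array 1 and -0.15 on array 2, with a mean of -0.24 ± 0.13 (SD, n = 2 arrays). The unadjusted p was 0.0201, and the adjusted p over all genes was 0.156 in limma's test, so that Sar1b did not pass, although its unadjusted 95% interval ran from -0.45 to -0.039. It stood at rank 1134 of 18196 from the lowest ratio, and an unadjusted p under 0.05 was reached by 17.6% of all genes. The unadjusted p of Sar1b in limma's test depended on the processing. It was 0.0511 with an offset of 16, 0.052 with an intensity trend, 0.0991 with the deposited log ratio and 0.92 with median centring. Without the filter on dim probes it was 0.022, and with the mean of the kept probes 0.0156.

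Sort1 encodes sortilin, a sorting receptor of the Golgi that binds apolipoprotein B. Its 3 probes gave signals close to background. The probe that stands for it was well above background in choline-deficient liver on 1 array and in control liver on both, so that it was kept through the control diet alone. Its levels were 7.41 and 7.12 in choline-deficient liver, against 7.44 and 7.28 in control liver, and the groups overlapped. The log2 ratio was -0.091 ± 0.090 (SD, n = 2 arrays, limma adjusted p = 0.809), and -0.26 with the deposited log ratio. The other probes were not kept and had ratios of opposite sign on the arrays, 0.14 and -0.17 for the one and 0.093 and -0.28 for the other. In the authors' deposited table, which adds no offset to the signals, those probes had log10 ratios of choline-deficient over control of 0.36 and 0.58 on array 1 and of -0.21 and -0.42 on array 2. Whether a difference in Sort1 could be detected at this brightness was not tested.

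Abca1, the transporter that lipidates apolipoprotein A-I, had levels of 9.67 and 9.61 in choline-deficient liver, against 9.70 and 9.79 in control liver. The groups did not overlap, although on array 1 the log2 ratio was only -0.031. The mean log2 ratio was -0.11 ± 0.11 (SD, n = 2 arrays), with a 95% interval from -0.31 to 0.097 (limma adjusted p = 0.745).

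Lcat had mean signals, before any correction, of 20938 (Cy5, array 1) and 10780 (Cy3, array 2) in choline-deficient liver, against 12077 (Cy3, array 1) and 29612 (Cy5, array 2) in control liver. Within each dye, the choline-deficient signal was thus the lower one. That comparison sets array 1 against array 2, and array 2 was the brighter in both dyes. Over all gene spots the median signal was 134.7 and 155.0 in Cy5, and 118.8 and 136.1 in Cy3. The choline-deficient RNA was on the dimmer array in Cy5 and on the brighter one in Cy3. After normalization the levels were 13.73 and 13.93 in choline-deficient liver, against 14.33 and 14.17 in control liver, and the groups did not overlap. The log2 ratio was -0.60 on array 1 and -0.24 on array 2, and its mean of -0.42 ± 0.26 (SD, n = 2 arrays) passed limma's test (adjusted p = 0.00329), with a 95% interval from -0.63 to -0.21, or 0.648-fold to 0.863-fold of control. The SD was wide beside the median of 0.0974 over all genes, and the test rests largely on the pooled spread. Without array 1 the value was -0.24, and with the deposited log ratio it was -0.39 with an adjusted p of 0.452. In the authors' deposited table the log10 ratio of Lcat had a p of 0.00825 on array 1 and of 0.288 on array 2. On array 1 this deposited p was under 0.05 for 4 of the 13 probes of the 9 genes, and on array 2 for 0. Beside Lcat these were the Pltp probe (0.0335) and the Sort1 probes that were not kept (0.0309 and 0.00707). The ratios of those Sort1 probes were above 0 on array 1. In bulk liver, fewer cells of a type and less RNA per cell cannot be told apart, which holds for every gene here.

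Pltp encodes the phospholipid transfer protein that moves surface phospholipid between lipoproteins. Its levels were 8.81 and 8.99 in choline-deficient liver, against 9.06 and 9.05 in control liver. The diets did not overlap, and array 1 gave most of the difference, with a log2 ratio of -0.25 against -0.061 on array 2. The mean was -0.15 ± 0.13 (SD, n = 2 arrays), with a 95% interval from -0.36 to 0.050 (limma adjusted p = 0.521), and the deposited log ratio gave -0.28.

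Lipc, hepatic lipase, which hydrolyses HDL phospholipid and triglyceride, had levels of 12.65 and 12.57 in choline-deficient liver, against 12.70 and 12.64 in control liver. The groups overlapped, and the arrays gave nearly the same small ratio. The mean log2 ratio was -0.060 ± 0.016 (SD, n = 2 arrays), with a 95% interval from -0.26 to 0.14 (limma adjusted p = 0.901).

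Scarb1 encodes SR-BI, the receptor for selective uptake of HDL cholesteryl ester, and was read by a pair of probes that moved in opposite directions. The brighter probe, at chr12:32457588-32457647 on the plus strand, had levels of 11.85 and 11.91 in choline-deficient liver, against 11.99 and 12.03 in control liver. The dimmer probe, shown above, had levels of 8.13 and 8.23 in choline-deficient liver, against 8.02 and 8.14 in control liver. The log2 ratio was -0.13 ± 0.017 (SD, n = 2 arrays, limma adjusted p = 0.635) for the brighter probe and 0.10 ± 0.014 for the dimmer one (adjusted p = 0.764 over all kept probes), so that neither passed. The brighter probe's ratio was below the dimmer one's by 0.25 on array 1 and by 0.21 on array 2 (brighter minus dimmer of -0.25 and -0.21), a difference for which no test was made. With the mean of both probes, Scarb1 was at -0.015.

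**Figure D2:**
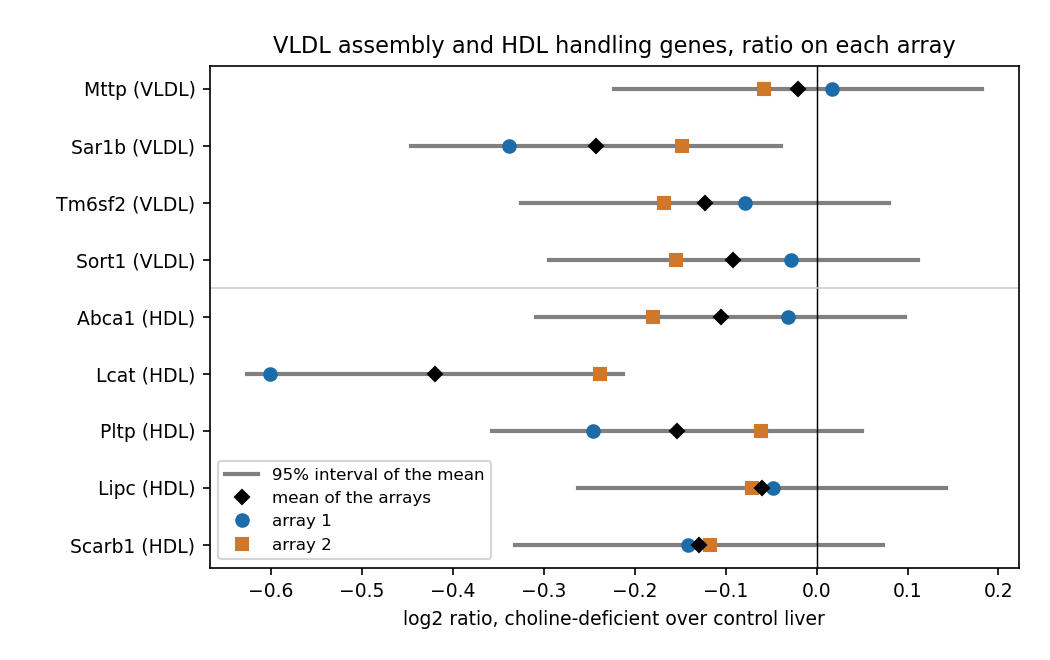
Log2 ratio of choline-deficient over control liver for the 9 genes (horizontal axis), on array 1 (circles), on array 2 (squares) and as their mean (diamonds), with the 95% interval of the mean from limma's fit as a grey bar. The interval of Lcat, from -0.63 to -0.21, lies furthest from 0. That of Sar1b also leaves out 0 but is not adjusted for the number of genes. With an offset of 16 the unadjusted p of Sar1b in limma's test is 0.0511, and with an intensity trend 0.052. All 9 means lie below 0 here, against 3 of 9 under median centring, where the median over all genes is 0.079. Those of the 8 hepatocyte markers tested, not drawn, also lie below 0 in the main fit.

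Apart from Lcat and Sar1b, each unadjusted interval of the main fit held 0, and the lowest bound among them was -0.36 (Pltp) and the highest was 0.18 (Mttp). In the order of their ratios, Lcat stood at rank 363 of 18196 from the lowest, followed by Sar1b, Pltp, Scarb1, Tm6sf2, Abca1, Sort1, Lipc and Mttp at rank 7797. The intervals of neighbours in this order overlap, those of Lcat and Sar1b included.

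**Figure D3:**
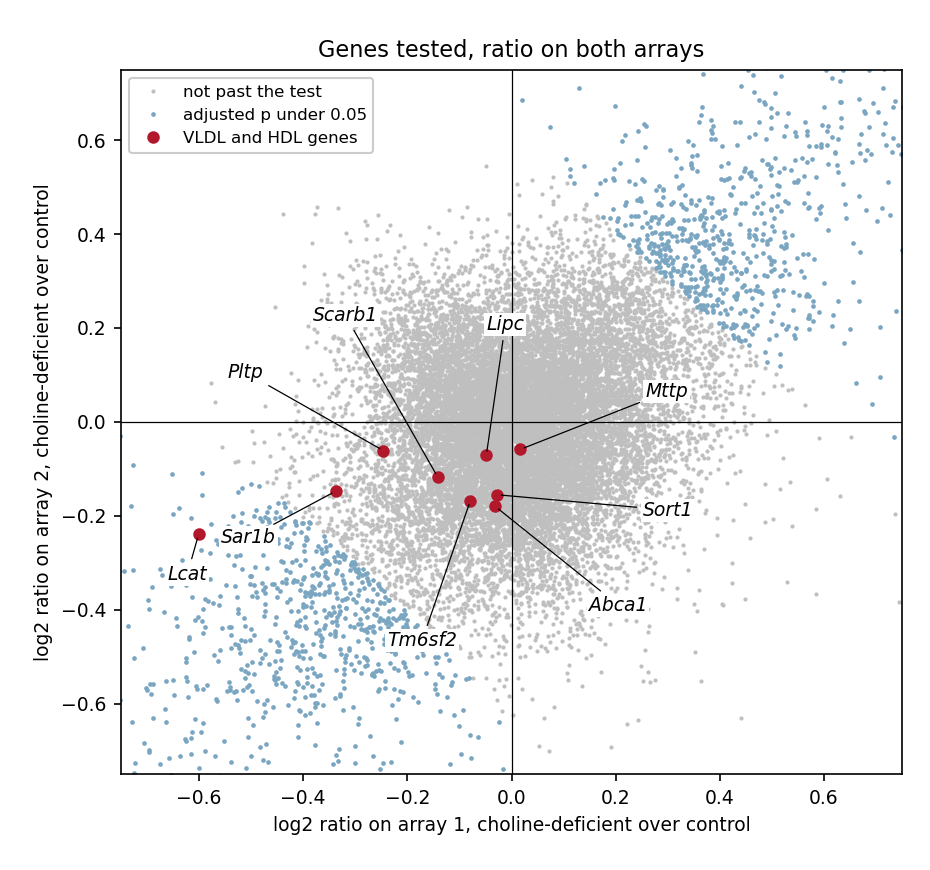
Log2 ratio of choline-deficient over control on array 1 (horizontal axis) and array 2 (vertical axis) for the genes tested, with 273 genes beyond the plotted range of 0.75. Red points are the 9 genes: Lcat lies among the genes past the test (blue), at -0.60 and -0.24, and the others lie in the grey cloud, which with loess normalization reaches both sides of 0 on both arrays.

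Some partners of VLDL assembly fell. Of 16 tested of 17 listed, 4 were lower and 0 higher, beside 4.25% lower and 4.37% higher among all genes. Under median centring the list median was -0.010 and that of all genes 0.079, while in the main fit the list median was -0.18. The largest change was in Ces1d, a carboxylesterase of the endoplasmic reticulum (-0.87 ± 0.10, SD, n = 2 arrays, limma adjusted p = 6.15e-10). Apob, the protein onto which Mttp loads lipid, fell (-0.59 ± 0.052), and its 5 kept probes ran from -0.59 to -0.36. Acsl1, which activates fatty acids, fell at its brightest probe (-0.53 ± 0.10), but its 5 probes ran from -0.53 to -0.04. Apoc3, an inhibitor of lipolysis carried on VLDL, was lower too (-0.40 ± 0.43), at -0.098 without array 2 and -0.71 without array 1. Aadac (-0.29 ± 0.16) and Ces1e (-0.28 ± 0.0081), further esterases of the endoplasmic reticulum, did not pass.

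Among COPII coat and export genes, 24 of 27 were tested, 1 was higher and 0 lower, beside the same 4.37% and 4.25% among all genes, with a median of 0.050 that was 0.17 under median centring. The gene that rose was Preb (0.37 ± 0.11, SD, n = 2 arrays, adjusted p = 0.00981), whose product is the exchange factor that loads SAR1 with GTP. Sec23b (0.29 ± 0.14) and Mcfd2 (-0.20 ± 0.14) did not pass. Sar1a, the paralog of Sar1b and chosen here after its value was seen, was at 0.030 ± 0.058. Among sorting and lipoprotein receptors, 16 of 19 were tested, with 1 higher and 1 lower, beside 4.37% higher and 4.25% lower among all genes. The median was -0.0034, and 0.14 under median centring. Lsr, a receptor for lipolysed lipoproteins, rose (0.35 ± 0.12), and the proprotein convertase gene Pcsk6 fell (-0.67 ± 0.098). The endocytic receptor Lrp1 (-0.30 ± 0.14, limma adjusted p = 0.0502) and the sortilin adaptor Gga2 (0.24 ± 0.060) did not pass.

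Of the HDL particle and cholesterol efflux partners, 19 of 24 were tested, 3 were higher and 4 lower, beside 4.37% higher and 4.25% lower among all genes, with a median of -0.090 that was 0.060 under median centring. The genes of the main HDL apolipoproteins rose, Apoa2 by 0.78 ± 0.38 and Apoa1 by 0.40 ± 0.24 (SD, n = 2 arrays), and without array 1 they stood at 0.50 and 0.23. The sterol carrier gene Stard4 rose too (0.37 ± 0.056). The genes of the list that fell were Saa4 (-0.60 ± 0.27), Apom (-0.42 ± 0.084), Apoa4 (-0.42 ± 0.49) and, outside the rule for named genes, the paraoxonase gene Pon1 (-0.36 ± 0.17). Apoa4 was at -0.076 without array 2 and at -0.77 without array 1. Beside them, Lcat, which apolipoprotein A-I activates, was lower, and Abca1 did not pass. The sterol exporter Abcg5 (-0.32 ± 0.52) and Apoe (-0.29 ± 0.41), a further HDL protein gene, did not pass, and Abcg5 was well above background in choline-deficient liver on 1 array only.

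In the triglyceride lipase family, to which Lipc belongs, and among its regulators, 12 of 17 were tested. Of these, 1 was higher and 2 lower, beside 4.37% higher and 4.25% lower among all genes. The median was 0.011, and 0.017 under median centring. Lpl, lipoprotein lipase, rose (0.61 ± 0.0066, SD, n = 2 arrays), with a second probe at 0.31. Lpl was dim, as Sort1 was, with levels of 7.99 and 7.85 in choline-deficient liver against 7.38 and 7.24 in control liver. The size of its ratio depended on the processing, at 0.75 with an offset of 16 and 1.51 with the deposited log ratio. Its inhibitor Angptl4 fell (-0.49 ± 0.035). Its activator Apoc2 (-0.28 ± 0.14) and Apoa5 (0.16 ± 0.27) did not pass. Of 18 tested of 20 transcription factors known to act on these genes, 1 was higher and 3 lower, beside 4.37% higher and 4.25% lower among all genes, with a median of -0.11 that was -0.0059 under median centring. Srebf1, a driver of fatty acid synthesis genes, rose (0.30 ± 0.091), while Foxa2 (-0.48 ± 0.027), Nr5a2 (-0.41 ± 0.11) and Nr1h4, the bile acid receptor FXR (-0.38 ± 0.051), fell. Nr2f1 (-0.25 ± 0.14) and Nr0b2 (-0.23 ± 0.23) did not pass, and neither did Nr1h3, the oxysterol receptor known to induce Abca1 and chosen here after its value was seen (-0.10 ± 0.23). With the deposited log ratio or with median centring, limma called 0 genes of these lists, as it called 0 of all genes (2122 and 19 at an unadjusted p under 0.05). With an intensity trend, limma's calls of Apoc3 (adjusted p = 0.18), Apoa4 (0.155), Apoa1 (0.148) and Srebf1 (0.169) were lost. With an offset of 16, those of Apoc3 (adjusted p = 0.0772), Apoa4 (0.0696), Pon1 (0.0658) and Srebf1 (0.105) were lost, and without the filter on dim probes that of Srebf1 (0.102). Calls were also gained: with an intensity trend, limma called Ces1e (adjusted p = 0.0368) and Lrp1 (0.0113) lower and Sec23b (0.0167) higher.

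**Figure D4:**
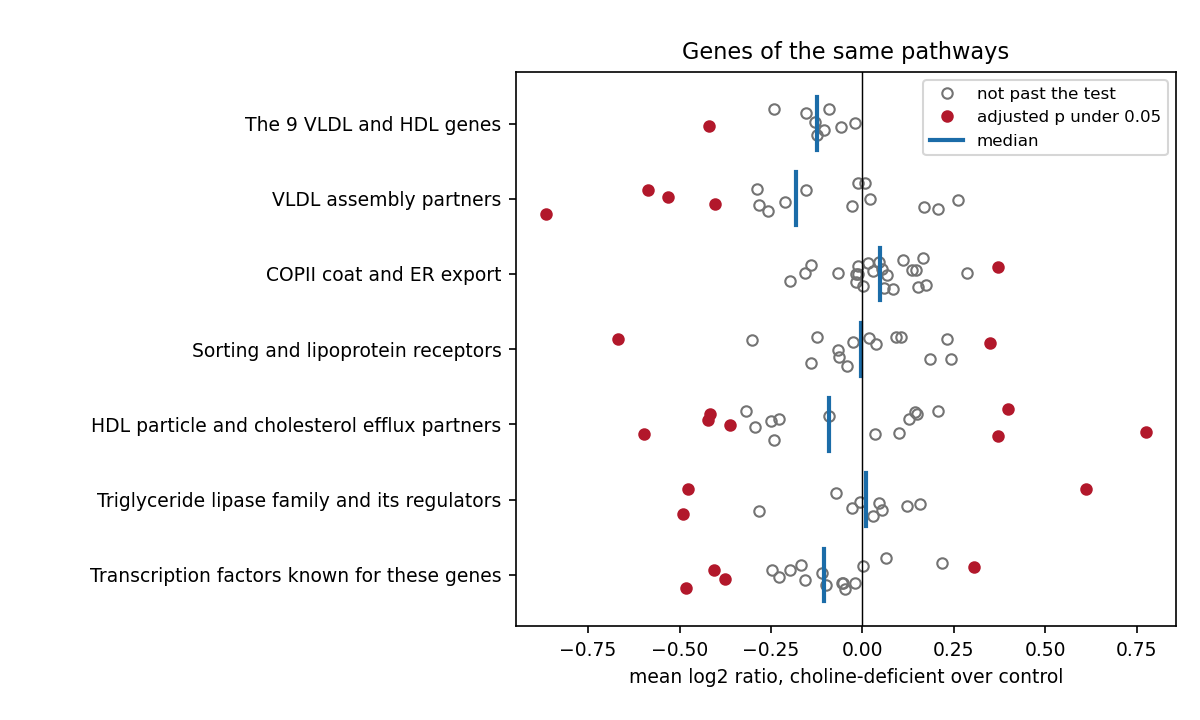
Mean log2 ratio of choline-deficient over control (horizontal axis) for the 9 genes and for the tested members of the 6 pathway lists, with genes past the adjusted p of 0.05 filled and blue bars at each median. The medians run from -0.18 for VLDL assembly partners to 0.050 for the COPII list. Under median centring those of the receptor and HDL lists turn positive, at 0.14 and 0.060, beside 0.079 over all genes. The vertical scatter within a row has no meaning.

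The labelled tissue showed its markers, with 8 of 8 hepatocyte markers above background and tested. Of these, 2 were lower (Fgb at -0.67 ± 0.31 and Alb at -0.31 ± 0.23, SD, n = 2 arrays) and 0 higher. All 8 had means below 0, with a median of -0.20, as had all of the 9 genes. Among all genes 4.25% were lower and 4.37% higher, shares that also stand beside the other marker counts below. Ttr did not pass (-0.064 ± 0.45), and 4 of the 8 hepatocyte markers had ratios of opposite sign on the arrays. These were the bright genes Tf, Serpina1, Ahsg and Ttr, with levels from 16.2 to 17.1. Their ratios were 0.22 to 0.37 on array 1 and -0.96 to -0.38 on array 2. The ratios of Fgb, Alb, Apoc3 and Apoa4, which were about as bright, were also lower on array 2 than on array 1. Whether this spread goes with brightness was not tested. Alb was at -0.15 without array 2, and limma's adjusted p for it was 0.425 with an intensity trend, 0.171 with an offset of 16, 0.0999 without the filter and 0.0691 with the mean of its probes. The summed level of the 8 hepatocyte markers on the log2 scale was 19.4 and 19.0 in choline-deficient liver, against 19.3 and 19.6 in control liver. Macrophages also use Abca1, Pltp and Sort1. Of 8 tested of 10 macrophage markers, Marco (0.91 ± 0.13) and Lyz2 (0.69 ± 0.24) rose and Cd14 fell (-0.41 ± 0.0055), while Cd68 (0.16 ± 0.14) and Csf1r (0.12 ± 0.0025) did not pass. Clec4f, outside the rule for named genes, was below 0 on both arrays (-0.29 ± 0.23) and did not pass limma's test (adjusted p = 0.0627). The summed level of these was 14.7 and 14.8 in choline-deficient liver, against 14.9 and 14.8 in control liver. Of 5 tested of 7 endothelial markers, Kdr fell (-0.46 ± 0.17), and in adipose, gut and pancreas markers (3 tested of 7) Fabp2 rose (0.61 ± 0.0087) and Cfd fell (-0.49 ± 0.033). None of 5 stellate cell, 3 lymphocyte or 3 cholangiocyte markers tested passed limma's test. Among these, Des was at 0.079 ± 0.16, Lrat at -0.10 ± 0.065, Cd3d at 0.069 ± 0.027 and Krt19 at -0.024 ± 0.11, while Pecam1, Cd3e, Krt7 and Adipoq were too dim to be tested. The part of these cells in the ratios of the 9 genes was not tested.

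The small ratios depended on the dye correction. Before normalization, Cy5 exceeded Cy3 for all 9 genes on both arrays, so that background-subtracted ratios of choline-deficient over control were above 1 on array 1 and below 1 on array 2. For Lcat they were 1.74 and 0.363, for Sar1b 2.08 and 0.387 and for Mttp 2.45 and 0.460. Averaged over the dye swap with no normalization, an alternative added after seeing the data, Lcat was at -0.33, Sar1b at -0.16 and Mttp at 0.087, while the median over all genes tested was at 0.080. Lcat was the lowest of the 9 genes under every processing in the plot of mean ratios.

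**Figure D5:**
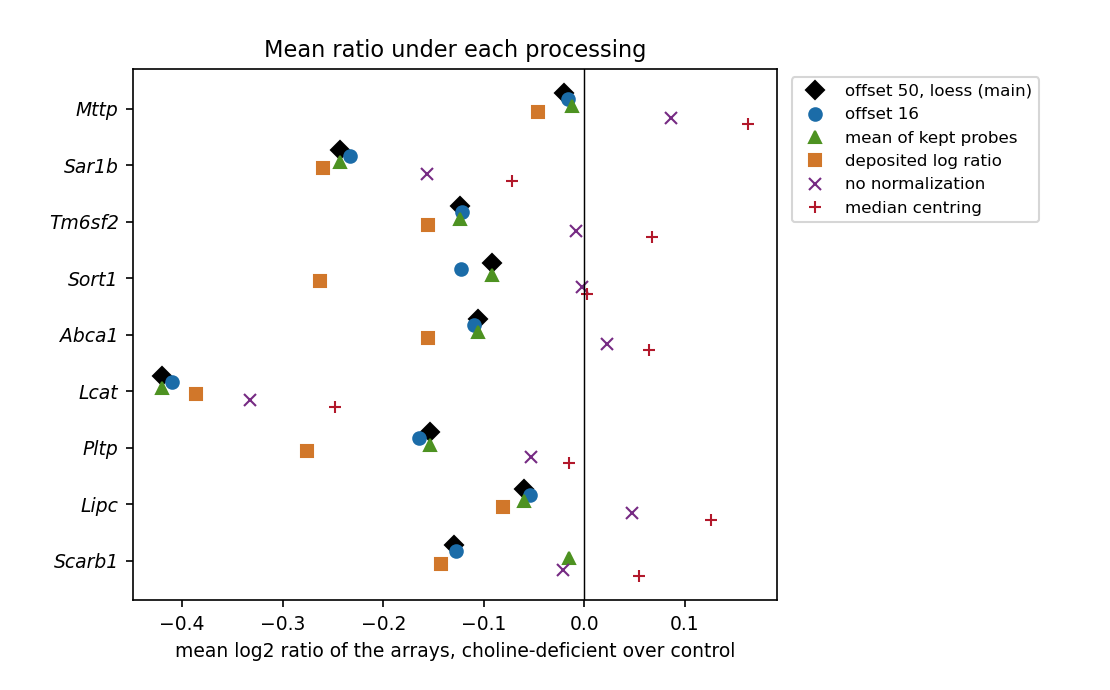
Mean log2 ratio of choline-deficient over control over both arrays (horizontal axis) for the 9 genes under 6 ways of processing. Lcat lies between -0.42 and -0.25 in all of them, while Abca1, Lipc, Mttp, Scarb1, Sort1 and Tm6sf2 cross 0 with median centring. The median over all genes is 0.079 in that setting.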

How the data were processed

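Liver RNA was measured on 2 Agilent two-colour arrays, on the same slide and in the same scan per the file headers, and the number of arrays limits the precision. The scanner software, per the file headers, was Feature Extraction 9.5.3.1, and the submitters' processing notes name version 9.5. The deposited files hold raw intensity values of each dye with 0/1 flags and other annotation. Per the file headers, each spot also has a log10 ratio, red over green, with an error score and a p-value from the error model of that software. The deposited series table equalled that log10 ratio within 1% in 45018 of 45018 rows on each array (median 0 on both, direction Cy5 over Cy3), while its row numbers equalled the feature numbers in 2930 rows, and it named no probe here.

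With limma 3.58.1 in R 4.3.3, mean signals were corrected by normexp (offset 50, local median background), which draws ratios of dim spots towards 0, and normalized by loess within arrays with control spots at weight 0. Outlier spots (174 and 151) were dropped before repeat spots were averaged. A probe was kept where both arrays showed it well above background in the same diet (22367), and the brightest kept probe stood for a gene (18196). Levels by diet followed A-quantile scaling. Ratios, turned to choline-deficient over control, were tested against 0 with lmFit and eBayes (two-sided, 1 residual and 63.3 prior degrees of freedom, Benjamini-Hochberg over all genes); a second fit took all kept probes. The median SD among the 10 spots of replicated probes was 0.0612 on array 1 and 0.0515 on array 2, and no spot was saturated. All 13 probes matched a RefSeq accession of their gene in assembly GRCr8, used for names only. The procedure was tested on simulated data whose noise came from the differences between these same arrays, so that it holds no other spread.

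The 9 genes and all lists were chosen with earlier results of these data known. From each list, the text names up to 6 genes past the threshold with the largest absolute ratio, and up to 2 more that did not pass; exceptions are stated, and 1 gene that the rule would name is not reported here. Of markers it names those that passed and the first 2 of each list. Alternatives were another offset, the deposited log ratio, median centring, no filter on dim probes, the mean of the kept probes, an intensity trend, each array alone, and, added later, no normalization.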

Additional observations from a re-analysis of the deposited data

How the results depend on the processing

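Lcat stayed below 0 under all alternatives. It passed limma's test with an offset of 16 (adjusted p = 0.0312), with no filter on dim probes (0.0115), with the mean of the kept probes (0.00373) and with an intensity trend (0.0118). It did not with the deposited log ratio (-0.39, adjusted p = 0.452) or with median centring (-0.25, adjusted p = 1.00, with 0.73 on array 1 and -1.22 on array 2). In the fit over all kept probes, 1 of the probes of the 9 genes passed, that of Lcat, against 0 with an offset of 16, with the deposited log ratio and with median centring. With the deposited log ratio and with median centring, limma called 0 of the 9 genes, 0 of the pathway list genes in each direction and 0 genes higher or lower in all. The main counts were 795 higher and 773 lower, and other alternatives gave from 618 to 967 higher and from 571 to 866 lower. With median centring, mean ratios turned positive for Abca1 (0.065), Lipc (0.13), Mttp (0.16), Scarb1 (0.055), Sort1 (0.0026), Tm6sf2 (0.067) and the dimmer Mttp probe (0.065), and the median SD over the arrays was 0.787 against 0.0974, since that setting leaves the dependence of the dyes on intensity in place. The median ratio over all genes was 0.079 with median centring. With no normalization, Abca1 (0.023), Lipc (0.047), Mttp (0.087), Scarb1 (-0.021) and Tm6sf2 (-0.0083) moved by more than the SD of the arrays.

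Leaving out an array left no residual degree of freedom, so that values without a test remain and counts could not be had. Single arrays gave from -0.60 to -0.24 for Lcat, from -0.34 to -0.15 for Sar1b and from -0.058 to 0.017 for Mttp. The test was paired by array, because both diets were read on each array and the ratio pairs them. No pairing of animals could be made, since the labels do not identify them. The probes of Sort1 lay close to background, where the offset draws ratios towards 0. Whether a change of the size seen elsewhere could be measured there was not tested.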
